A study of Homo sapiens with 16 samples.

Results

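Interferon response genes are the genes that cells switch on when an interferon binds its receptor. The set followed here holds 45 of them, named by symbol and without the IFITM family: transcription factors, GTPases, TRIM proteins, the ISG15 conjugation system, RNA sensors, OAS enzymes and nucleases, antigen processing genes, IFI genes, chemokines and 4 other induced proteins. Of the 45 symbols, 44 had a probe set assigned to that gene alone on the Affymetrix U133A array, out of 11963 such genes in all, and STAT2 was not analysed here. The probe set with the highest mean signal over the 12 arrays stood for each gene. Genes whose mean log2 signal (with 15.8 added to each signal) lay under the 40th percentile of genes, equal to a signal of 169, were left out of the test. That left 29 of the 44 members among 7178 tested genes, and the other 15 members are described at the end of the results on U133A.

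The cells were OVCAR3, an established line from a human ovarian carcinoma, and the agent was 1,25(OH)2D3, active vitamin D hormone, which acts through a nuclear receptor. The 4 groups were an ethanol vehicle control, labelled 0 h, and cells given 0.1 pM of the hormone for 8 h, 24 h or 72 h. That dose is the labels' own figure. Hormone was added at staggered times so that all dishes were collected together, and every dish had equal ethanol for an equal time. On U133A each group had 3 arrays from 3 independent experiments, and 4 arrays of an older type, U95, held 1 sample for each group. No interferon was named among the treatments, so the values are levels in cells to which no interferon is said to have been added, and all groups are of a single cell line.

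Type I interferons signal through the receptor chains IFNAR1 and IFNAR2, and interferon gamma through IFNGR1 and IFNGR2. Both receptors use kinases of the JAK family to activate STAT proteins. STAT complexes that contain IRF9 bind the interferon-stimulated response element (ISRE), STAT dimers bind the gamma-activated site (GAS), and proteins of the IRF family bind ISRE-like sequences as well. The induced genes restrict viruses, edit or sense RNA, cut proteins into peptides for presentation and attract lymphocytes, and many are expressed at a low level in cells with no added interferon.

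Array to array correlations of the log2 signals over the U133A arrays lay between 0.944 and 0.983. CYP24A1, the enzyme that degrades the hormone and a textbook target of its receptor, was higher than vehicle by 5.65, 5.86 and 5.89 on the log2 scale at 8, 24 and 72 h (limma with Benjamini-Hochberg adjustment, adjusted p = 1.7e-07, 3.3e-08 and 1.3e-08). All 10 markers of epithelial ovarian carcinoma were above the filter, with a summed signal between 39900.1 and 46541 on the vehicle arrays, and 4 of them changed: WT1 rose by 0.97, 1.00 and 1.05 on the log2 scale at 8, 24 and 72 h, CDH1 rose by 0.66 and 0.69 at 24 and 72 h, KRT18 fell by 0.50 and 0.37 at those times, and PAX8 fell by 0.37 at 24 h. Of 8 leukocyte markers 1 was above the filter, of 8 fibroblast markers 3 and of 6 endothelial markers 0. The summed leukocyte signal was 692 to 906 in vehicle, 815 to 963 at 8 h, 633 to 775 at 24 h and 689.8 to 878 at 72 h. Each treated range overlapped with the vehicle range, while the 8 h and 24 h ranges did not overlap with each other. No leukocyte or fibroblast marker passed the test at any time. In RNA from whole dishes, fewer cells that express a gene and less RNA per cell cannot be told apart.

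The elements through which these genes are known to be induced can be read in their promoters. RefSeq promoters on GRCh38.p14, from 250 bases before to 50 after the start, were found for 37 of the 45 members, 51 promoters in all. GBP2, IFIT2, IRF7, MX2, OAS2, OASL, TRIM22 and USP18 had no entry. The ISRE core GAAANNGAAA was searched on both strands and occurred in 26 of the 51 promoters (51%), against 3.57% of all 35116 promoters. The GAS core TTCNNNGAA, which reads the same on both strands, occurred in 12 of 51 (23.5%), against 7.66%. The DR3 repeat, the direct repeat bound by the vitamin D receptor, occurred in 0 of 51, against 26 of all 35116 promoters (0.074%). At so low a share 0 is the likely count for any 51 promoters, so this count cannot set the members apart. It also speaks only of this pattern in this window. The windows that follow show both elements in genes that fell with the hormone (IRF1, PSMB8 and IFIT5) and in genes that passed no test (IRF9, GBP1 and ISG15). Each is written 5′ to 3′ on the strand of its gene, with the GAS core in capitals for the first 3 lines and the ISRE core in capitals for the last 3.
IRF1, chr5:132490869-132490917, minus strand: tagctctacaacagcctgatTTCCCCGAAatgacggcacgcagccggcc
PSMB8, chr6:32844084-32844132, minus strand: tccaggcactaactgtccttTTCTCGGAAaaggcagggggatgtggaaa
IRF9, chr14:24161182-24161230, plus strand: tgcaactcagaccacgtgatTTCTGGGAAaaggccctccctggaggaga
IFIT5, chr10:89414503-89414552, plus strand: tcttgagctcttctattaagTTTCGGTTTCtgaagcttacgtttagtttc
GBP1, chr1:89065306-89065355, minus strand: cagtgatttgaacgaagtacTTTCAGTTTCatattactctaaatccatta
ISG15, chr1:1013370-1013419, plus strand: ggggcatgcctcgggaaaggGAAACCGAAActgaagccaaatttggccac

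In IFIT5 and GBP1 the ISRE core lies on the opposite strand, so it appears as its reverse complement. In ISG15 a second ISRE match overlaps the one in capitals and begins 6 bases before it. IFIT5 had 3 ISRE matches, and PSMB8 had an ISRE match across its start besides the GAS core. Both RefSeq promoters of IRF8, the member with the most calls, had a match to none of the 3 motifs. Among the 4 matched members that fell at any time, 2 of 6 promoters held the ISRE core and 2 of 6 the GAS core. Among tested members that did not fall, 14 of 26 promoters held the ISRE core and 4 of 26 the GAS core. Some genes have several promoters, which can share a site. Counted by gene, 2 of 4 members that fell held the ISRE core and 2 of 4 the GAS core. Among those that did not fall it was 12 of 19 and 4 of 19. A match is a description of letters and not evidence that a factor was bound in these cells.

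Over the whole set, whose members were chosen with earlier results of these data known, a few members fell and none rose. At 8 h, 1 of the 29 tested members fell (IRF8) and 0 rose, where 0.0557% of all tested genes fell and 0.724% rose. At 24 h 3 fell (IRF8, GBP2 and IRF1) and 0 rose, where 1.62% of all tested genes fell and 2.47% rose. At 72 h 5 fell (IRF8, GBP2, TRIM22, IFIT5 and PSMB8) and 0 rose, where 2.98% fell and 3.86% rose. These are limma calls at a Benjamini-Hochberg adjusted p under 0.05 over all 7178 genes, and the 3 comparisons share the same 3 vehicle arrays. At an unadjusted p under 0.05 the members counted 4 lower and 0 higher at 8 h, 9 and 0 at 24 h, and 9 and 1 at 72 h. Over all tested genes 2.66% were lower and 3.72% higher at that threshold at 8 h, 7.17% and 7.26% at 24 h, and 10.3% and 9.81% at 72 h. In all 6 members fell at 1 or more times and 23 passed at no time. The share of all genes that fell at 1 or more times was not counted, so only the counts at each time can be set against all genes.

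Counted on 1 probe set for each gene, most tested members lay below vehicle by small amounts. Further probe sets of EIF2AK2, GBP1, IFIT5, ISG20 and SP110 did not all share the sign of the one used. The other OASL probe set and the brighter further one of TAP2 were lower than vehicle at each time. At 8 h 21 of 29 differences were negative with a median of -0.18 on the log2 scale, while 51.2% of all tested genes were negative with a median of -0.00. At 24 h 24 of 29 were negative with a median of -0.22, against 53.3% and -0.02 over all genes. At 72 h 22 of 29 were negative with a median of -0.24, against 52.3% and -0.01. All log2 differences are of log2(signal + 15.8), which understates the change of genes near background. The standard error of a member's difference ran from 0.08 for LGALS3BP to 0.48 for PSMB8, with a median of 0.18. For a member with the median error, the 95% interval around a difference of the size of these medians includes 0.

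**Figure D1:**
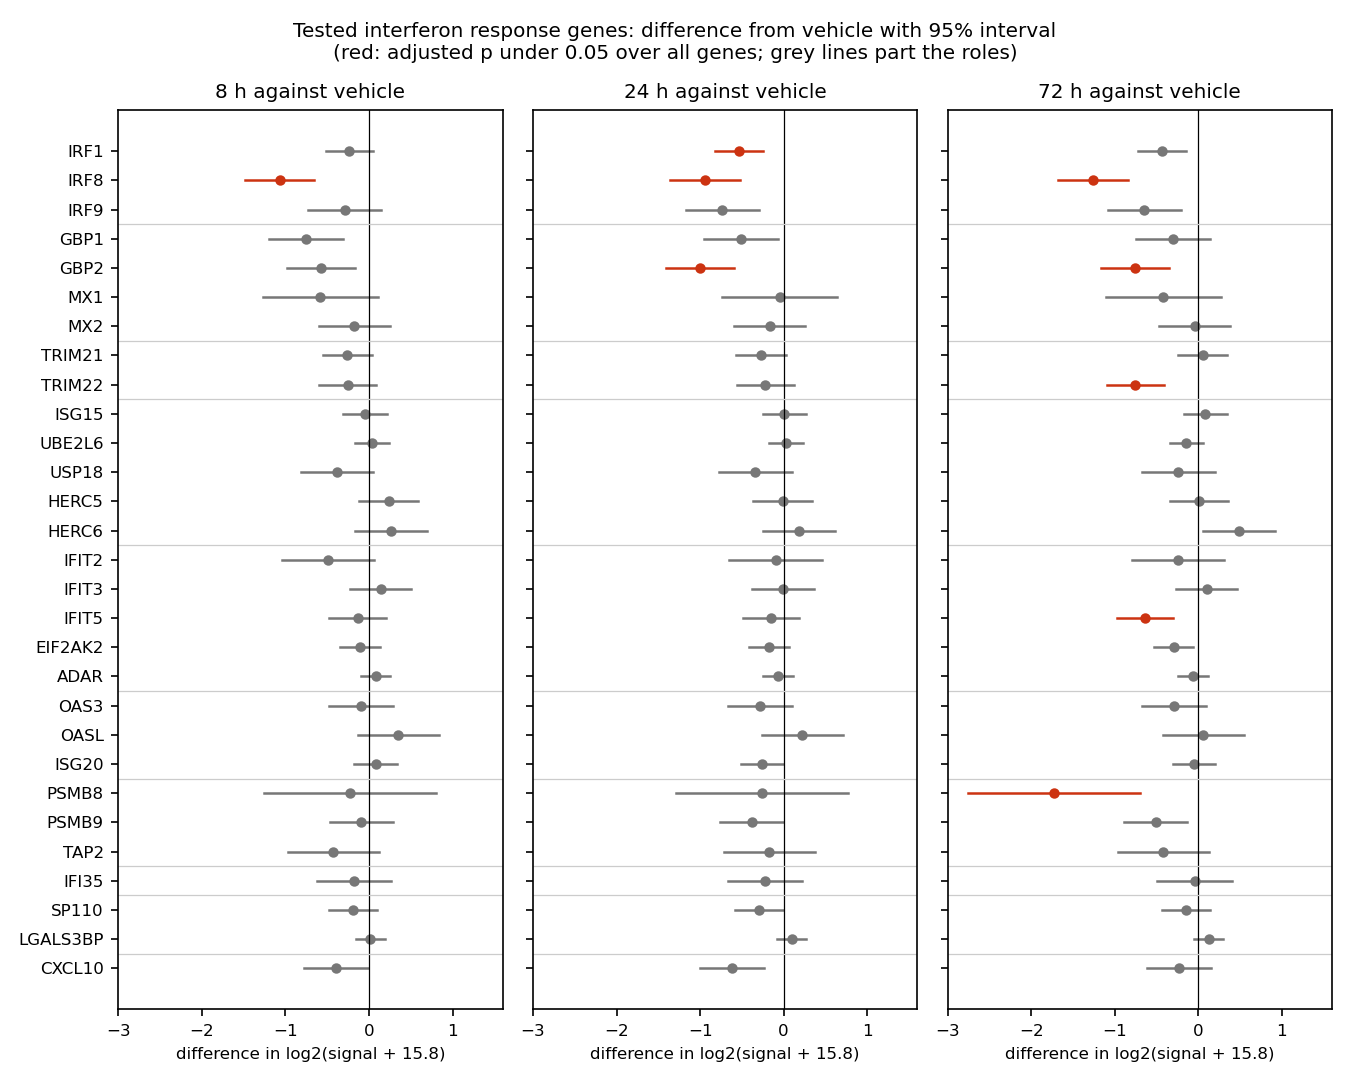
Difference from vehicle in log2(signal + 15.8) for each of the 29 tested members at 8, 24 and 72 h, with 95% intervals from limma and grey lines between roles. Points in red passed the test: 1 at 8 h, 3 at 24 h and 5 at 72 h, each left of 0.

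Groups without overlap were also counted. At 8 h all 3 treated arrays lay below all 3 vehicle arrays for 9 of the 29 members and above for 0, where 6.95% of all tested genes lay below and 6.52% above. At 24 h 12 members lay below and 0 above, where 11.2% and 9.35% of all genes did. At 72 h 11 lay below and 1 above, where 12.7% and 11.7% did. IRF1, IRF8, IRF9, GBP1, IFIT5 and EIF2AK2 lay below vehicle without overlap at every time, and HERC6 was the member above it at 72 h. The share of all genes below vehicle at every time was not counted, and the 3 times share the same vehicle arrays. Lying below at every time can therefore not be set against all genes, here or for the single genes that follow. Over the mean of the 9 treated arrays 3 members fell (IRF8, GBP2 and IRF1) and 0 rose, where 1.71% and 2.8% of all genes did. IRF1 passed there at an adjusted p of 0.0496 and lost the call in 13 of 19 alternative fits, with an adjusted p between 0.0242 and 0.211.

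Among the transcription factors, IRF8 and IRF1 fell. IRF8 is a member of the IRF family best known from myeloid cells and B cells. Its signal was 380.0, 295 and 431 on the vehicle arrays, 183, 132.9 and 186 at 8 h, 177, 172 and 198 at 24 h, and 135, 168 and 128 at 72 h. Every treated array lay below every vehicle array. IRF8 fell by 1.07 on the log2 scale at 8 h (SE 0.20, adjusted p = 0.0113), by 0.94 at 24 h (adjusted p = 0.00965) and by 1.26 at 72 h (adjusted p = 0.000652), all from limma with Benjamini-Hochberg adjustment. Of the 8 leukocyte markers, 4 had a group mean below vehicle at 8 h, 6 at 24 h and 3 at 72 h, and the others lay above it. Their part in the IRF8 values was not tested. The IRF8 differences are 2.10-fold, 1.92-fold and 2.40-fold lower levels of signal + 15.8. Its treated arrays averaged 164, just under the filter of 169, so IRF8 entered the test through its vehicle arrays, and its 3 calls were kept with no filter. Leaving out any of 3 arrays (vehicle replicates 1 and 3, and replicate 2 of 8 h) took the 8 h call away, with an adjusted p of 0.0888 at most. The 24 h call was lost when either of those vehicle arrays was left out (at most 0.0701), while the 72 h call was kept in all 20 alternative fits.

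IRF1 is an activator of many interferon gamma targets and itself a STAT target, and its GAS core is the first of the sequences above. It read 439.6, 466 and 465 in vehicle, 346, 411 and 404 at 8 h, 292, 317 and 324 at 24 h, and 286, 378 and 345 at 72 h. The vehicle arrays were close together and all 9 treated arrays lay below them. At 24 h IRF1 fell by 0.53 on the log2 scale (SE 0.13, adjusted p = 0.0347), while the differences of -0.23 at 8 h and -0.43 at 72 h did not pass (adjusted p = 0.92 and 0.068, the latter 0.0357 with a replicate block). The 24 h call was lost with no filter and without any single vehicle or 24 h array (highest adjusted p = 0.134).

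IRF9, the DNA-binding subunit of the type I interferon complex, read 325, 437 and 336 in vehicle, 289.6, 280.4 and 313 at 8 h, 225, 247 and 169 at 24 h, and 235, 164 and 298 at 72 h. All its treated arrays lay below vehicle, and none of its differences passed: -0.29, -0.74 and -0.64, with adjusted p = 0.98, 0.059 and 0.078. In limma fits with 1 array left out, the 24 h difference passed without 72 h replicate 2 (adjusted p = 0.0278) or 3 (0.0391). The 72 h difference passed without 72 h replicate 3 (0.0281). IRF7, the factor that amplifies type I interferon production, was under the filter at a mean of 185 in vehicle, 142 at 8 h, 136 at 24 h and 204 at 72 h.

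Of the 4 interferon-induced GTPases, GBP2 fell at 24 h and 72 h. GBP2 is a guanylate-binding protein that attacks the membranes around intracellular pathogens. Its signal was 472, 674 and 382 in vehicle, 299.9, 392 and 299.9 at 8 h, 249, 240.2 and 231 at 24 h, and 289, 338 and 243 at 72 h. The groups did not overlap at 24 h or 72 h, but 8 h replicate 2 lay above vehicle replicate 3. GBP2 fell by 1.00 at 24 h (SE 0.19, adjusted p = 0.00506), which is 2.00-fold lower, and by 0.76 at 72 h (adjusted p = 0.0241). The 24 h call was kept in all 20 alternatives, and the 72 h call was lost in 6, among them without vehicle replicate 1 or 2 (highest adjusted p = 0.126).

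GBP1, its close relative, read 768, 797 and 838 in vehicle, 542, 323 and 579.8 at 8 h, 498, 454 and 768 at 24 h, and 651, 562 and 738 at 72 h. Its treated arrays all lay below the lowest vehicle array, 24 h replicate 3 only just, and varied among themselves far more than the vehicle arrays did (SD 139 at 8 h against 34.9). The differences were -0.76, -0.51 and -0.30 and did not pass (adjusted p = 0.16, 0.25 and 0.46), though with a replicate block the 8 h difference did (adjusted p = 0.0245). A second GBP1 probe set differed by -0.32, 0.10 and 0.02, so the probe sets did not share a direction after 8 h. The dynamin-like antiviral GTPases MX1 and MX2 had differences between -0.58 and -0.04 and adjusted p of 0.53 or higher.

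In the TRIM family, TRIM22, a ubiquitin ligase that restricts several viruses, fell at the last time. It read 434, 362 and 425 in vehicle, 308, 360.2 and 349 at 8 h, 321, 393 and 328 at 24 h, and 201, 298 and 213 at 72 h. The 72 h arrays lay below all other groups' arrays. TRIM22 fell by 0.76 at 72 h (SE 0.16, adjusted p = 0.00804), while -0.25 at 8 h and -0.22 at 24 h did not pass. The 72 h call was kept in all 20 alternatives, with an adjusted p of 0.0429 at most. TRIM21, an antibody receptor inside cells, read 294, 391 and 368 in vehicle, 294, 285 and 285 at 8 h, 272, 287 and 301 at 24 h, and 394, 345 and 348 at 72 h. Its difference was -0.26 at 8 h, -0.27 at 24 h and 0.05 at 72 h, with adjusted p of 0.41 or higher.

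**Figure D2:**
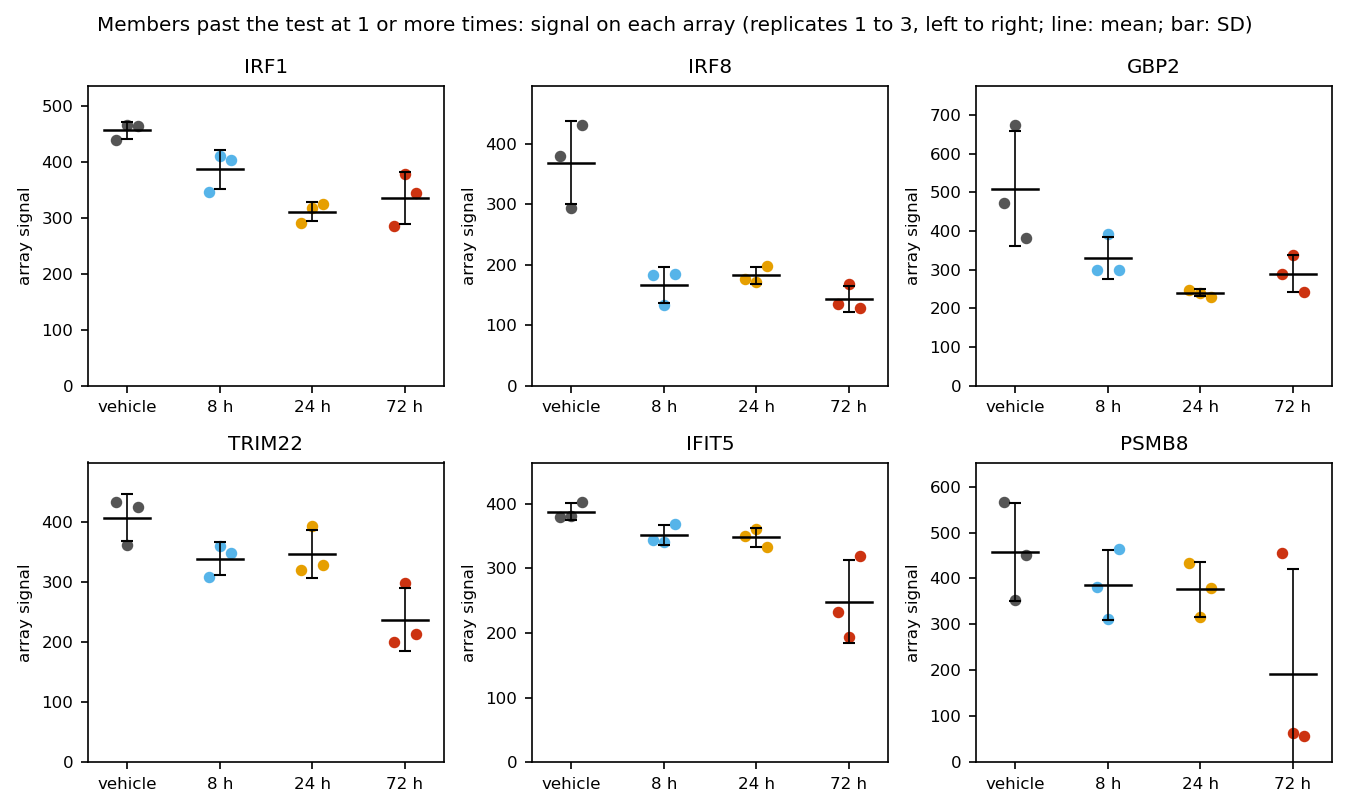
Signal on each U133A array (vertical axis, from 0) for the 6 members that fell at 1 or more times, by group, with the group mean as a line and the SD as a bar. IRF8 was between 128 and 198 on all 9 treated arrays against 295 to 431 in vehicle, and PSMB8 at 72 h split into 456 on replicate 1 and 64.4 and 58.0 on replicates 2 and 3.

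RNA sensors and binders gave 1 fall among 5 tested members, at 72 h, when 2.98% of all tested genes fell. IFIT5, which binds the ends of single-stranded RNA, read 379, 381 and 403 in vehicle, 344, 340.4 and 369 at 8 h, 350.1, 362 and 333 at 24 h, and 232, 194 and 319.9 at 72 h. Each treated array was below vehicle, and at 72 h the values spread over a range of 194 to 319.9. IFIT5 fell by 0.64 at 72 h (SE 0.16, adjusted p = 0.0219). Its other probe set differed by 0.32, 0.33 and 0.21, and with the mean of both the 72 h difference was -0.22 (adjusted p = 0.725). The call was also lost without any single vehicle array and without 72 h replicate 1 or 2.

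EIF2AK2 encodes PKR, the kinase that stops translation when it meets double-stranded RNA. Its signal was 849, 902 and 869.5 in vehicle, 804, 803 and 824 at 8 h, 826, 781 and 713 at 24 h, and 608, 777 and 756 at 72 h. All treated arrays were below vehicle, with differences of -0.11, -0.17 and -0.29 that did not pass (lowest adjusted p = 0.14), and a second probe set differed by 0.25, 0.15 and 0.10. ADAR, the enzyme that converts adenosine to inosine in double-stranded RNA, read 2849, 2705 and 2661 in vehicle, 2960.2, 2839.8 and 2875 at 8 h, 2820.3, 2512 and 2495 at 24 h, and 2806, 2486 and 2558 at 72 h. Its differences of 0.08, -0.07 and -0.07 did not pass, and the 95% interval at 72 h ran from -0.24 to 0.11. IFIT2 and IFIT3, further RNA binders of the same family as IFIT5, had differences of -0.49, -0.10 and -0.25 and of 0.14, -0.01 and 0.10, with adjusted p of 0.67 or higher.

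Antigen processing held the largest difference of the set, with the widest error. PSMB8 encodes an inducible catalytic subunit of the immunoproteasome, which cuts proteins into peptides for MHC class I. It read 567, 354 and 452 in vehicle, 383, 312 and 464 at 8 h, 434, 316 and 379 at 24 h, and 456, 64.4 and 58.0 at 72 h. At 72 h replicates 2 and 3 were far below all other arrays while replicate 1 lay within the vehicle range. PSMB8 fell by 1.72 at 72 h (SE 0.48, 95% interval -2.76 to -0.69, adjusted p = 0.0434). The call was lost in 14 of 20 alternatives (highest adjusted p = 0.157), while without 72 h replicate 1 the difference was -2.60 (adjusted p = 4.6e-06). Over all 20 alternatives the difference ran from -2.60 to -1.26.

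PSMB9, the partner subunit, had means of 273, 254, 207 and 186 in vehicle and at 8, 24 and 72 h, and differences of -0.09, -0.38 and -0.51 that did not pass (adjusted p = 1.0, 0.34 and 0.11). TAP2, a chain of the transporter that carries peptides into the endoplasmic reticulum, read 403, 379.6 and 287 in vehicle, 157, 286 and 379.8 at 8 h, 263, 349 and 331 at 24 h, and 279.9, 314 and 200.1 at 72 h. The groups overlapped at each time, and the differences of -0.43, -0.17 and -0.42 did not pass. Its partner chain TAP1 was under the filter, with means of 193, 169, 83.6 and 109.8, and without the filter its 24 h difference of -1.07 did not pass (adjusted p = 0.12).

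The ISG15 conjugation system, which attaches the ubiquitin-like protein ISG15 to other proteins, gave 0 calls among 5 tested members. At 72 h, the time with the most calls, 2.98% of all tested genes fell and 3.86% rose, so 0 of 5 does not set the group apart. By limma at an unadjusted p under 0.05, 1 member was counted (HERC6, higher at 72 h, as were 9.81% of all genes). ISG15 itself, whose ISRE core is shown above, read 761, 828 and 775 in vehicle, 836, 680.0 and 782 at 8 h, 853, 701 and 831 at 24 h, and 958, 740.5 and 825 at 72 h. The groups overlapped throughout, and the differences were -0.04, 0.01 and 0.09, with a 95% interval of -0.18 to 0.35 at 72 h. UBE2L6, its conjugating enzyme, read 1461, 1419 and 1474 in vehicle, 1559, 1469 and 1437 at 8 h, 1525, 1476 and 1445 at 24 h, and 1466, 1305 and 1185 at 72 h. The differences of 0.03, 0.03 and -0.14 did not pass, and the interval at 72 h was -0.34 to 0.06.

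HERC5, the ISG15 ligase in human cells, differed from vehicle by 0.24, -0.01 and 0.01, and its relative HERC6 by 0.27, 0.19 and 0.48. HERC6 had a vehicle mean of 148, under the filter, and entered the test through its treated arrays, which averaged 189.7. Its 72 h value of 0.48 did not pass (95% interval 0.05 to 0.91, adjusted p = 0.19). USP18, the protease that removes ISG15 and also damps signalling at the type I receptor, differed by -0.38, -0.34 and -0.24 and did not pass (lowest adjusted p = 0.50).

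Neither the OAS enzymes and nucleases nor the remaining groups held a call among tested members. With so few genes this does not set them apart from all tested genes, of which 2.98% fell and 3.86% rose at 72 h. OAS3, which makes the 2-5A messenger that switches on RNase L, read 444, 346 and 413 in vehicle, 444, 311 and 377 at 8 h, 350.1, 286 and 343 at 24 h, and 249, 348 and 391 at 72 h. ISG20, an exonuclease of RNA, read 451, 449 and 442 in vehicle, 506, 434 and 482 at 8 h, 417, 341 and 357 at 24 h, and 414, 432 and 448 at 72 h. ISG20 was below vehicle on all 24 h arrays only, by -0.26 (adjusted p = 0.32), whereas OAS3 overlapped with vehicle at every time. By limma, 0 of the 3 tested members of this group passed and 1 had an unadjusted p under 0.05 (ISG20, lower at 24 h, as were 7.17% of all genes). OASL, a family member without that enzyme activity, was higher by 0.35, 0.22 and 0.06 without passing, and its second probe set differed by -0.12, -0.03 and -0.10.

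CXCL10 encodes a chemokine that attracts activated T cells through CXCR3. It read 423, 391 and 441 in vehicle, 223, 385 and 359 at 8 h, 264, 265 and 272 at 24 h, and 295, 399 and 377 at 72 h. At 8 h and 24 h no treated array reached the lowest vehicle array, and the 24 h arrays were the closest together. The differences of -0.39, -0.62 and -0.23 did not pass (adjusted p = 0.75, 0.076 and 0.54). At 24 h the value was past the threshold in 3 of the alternatives, with only vehicle and 24 h arrays in the fit (adjusted p = 0.0233), without 8 h replicate 1 (0.0197) and with a replicate block (0.0426).

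LGALS3BP, a secreted glycoprotein that binds galectins, read 4669, 5369 and 4828 in vehicle, 4805, 5147 and 5078 at 8 h, 5696, 5146 and 5039.8 at 24 h, and 5532, 5572 and 5098 at 72 h. The groups overlapped and the differences were 0.02, 0.10 and 0.13 (95% interval -0.05 to 0.30 at 72 h). SP110, a nuclear body protein, read 343, 335 and 339 in vehicle, 287, 344 and 261 at 8 h, 276, 276 and 268 at 24 h, and 295, 326 and 292 at 72 h. It lay below vehicle at 24 h and 72 h, by -0.29 and -0.15 (adjusted p = 0.33 and 0.62), while its 2 brighter further probe sets differed by -0.07 to 0.10. IFI35, the IFI gene that passed the filter, read 192, 192 and 222 in vehicle, 190.4, 155 and 187 at 8 h, 150.5, 234 and 141 at 24 h, and 237, 176 and 178 at 72 h. It lay below vehicle at 8 h alone, and its differences of -0.18, -0.22 and -0.04 did not pass.

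**Figure D3:**
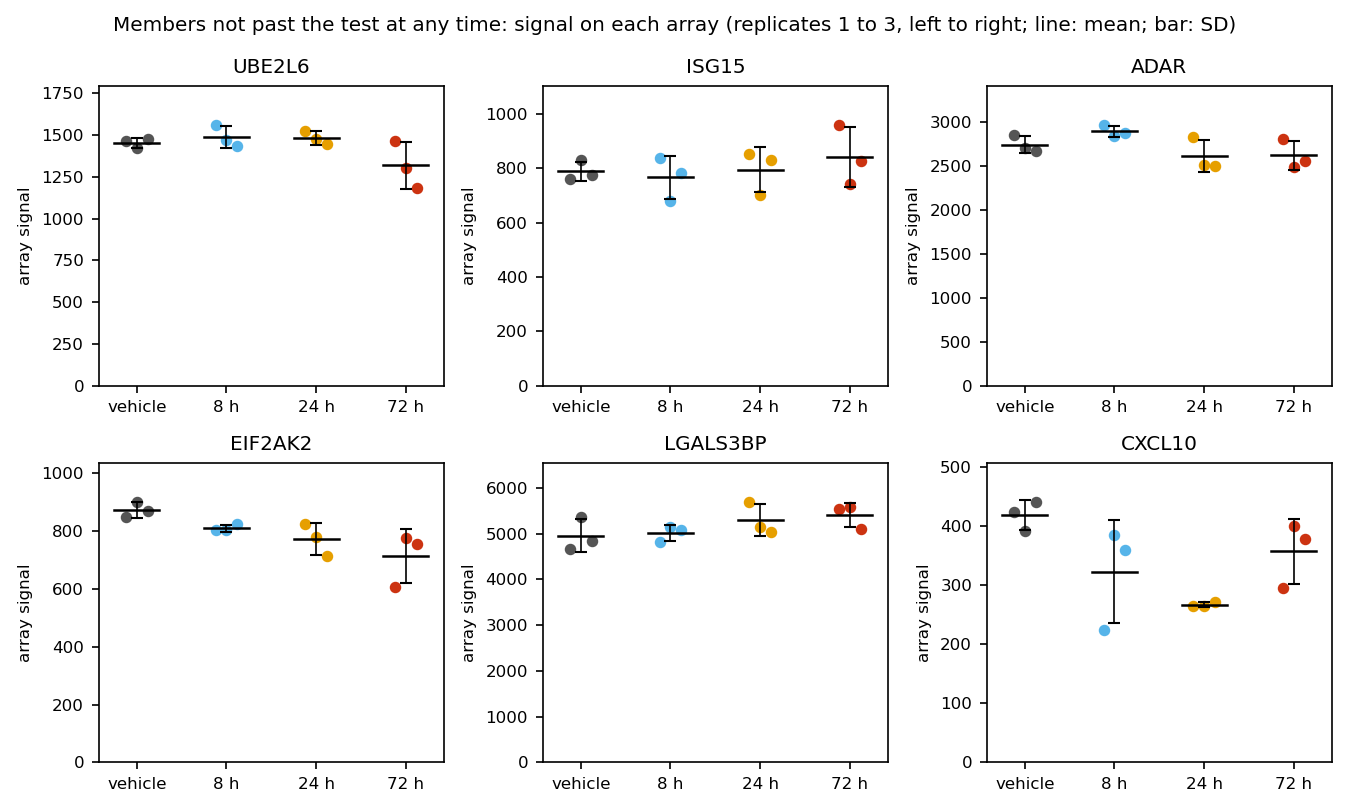
Signal on each U133A array (vertical axis, from 0) for 6 members that passed the test at no time, by group, with the group mean as a line and the SD as a bar. ISG15, ADAR, UBE2L6 and LGALS3BP overlapped with vehicle at 24 h and 72 h, while CXCL10 at 24 h was between 264 and 272 against 391 to 441 in vehicle.

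Differences between the treated times were tested directly. Among the 29 members 0 passed between 8 h and 24 h, between 24 h and 72 h or between 8 h and 72 h (limma, Benjamini-Hochberg), where 0.599%, 0.167% and 2.49% of all genes did in either direction. At an unadjusted p under 0.05 the later time was lower for 4, 3 and 4 members and higher for 0, 2 and 2, where 4.36%, 6.03% and 7.06% of all genes were lower and 3.9%, 5.71% and 7.04% higher. The falls of TRIM22 and IFIT5 at 72 h are therefore called against vehicle and not against 8 h, from which they differed by -0.50 and -0.50 (adjusted p = 0.13 and 0.12). A separate F test for any difference among the 4 groups, vehicle included, passed 3 members (IRF8, GBP2 and TRIM22), where 5.21% of all genes passed.

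The 15 members under the filter had single-array signals between 5.05 and 272. They were IRF7, IFIH1, IFIT1, OAS1, OAS2, SAMHD1, TAP1, IFI6, IFI16, IFI27, IFI44, IFI44L, BST2, XAF1 and CXCL11. The set thus includes 5 of 6 IFI genes and classical markers of type I interferon exposure, such as IFIT1 at means of 49.0, 41.6, 50.1 and 37.6. IFI44 read 184, 141 and 189 in vehicle, 136, 185 and 202 at 8 h, 205, 155 and 139 at 24 h, and 91.8, 184 and 135 at 72 h. CXCL11, a chemokine of the same receptor as CXCL10, read 37.2, 45.5 and 64.9 in vehicle, 36.6, 58.1 and 16.9 at 8 h, 60.9, 61.9 and 26.9 at 24 h, and 36.2, 57.8 and 30.2 at 72 h. In both genes the groups overlapped. The 15 genes were not tested in the reported fit.

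When limma was run with no filter, 1 of the 15 passed at 24 h and 0 at 8 h or 72 h. Over all 11963 genes of that fit 97 fell and 156 rose at 24 h. At an unadjusted p under 0.05 the 15 genes counted 0 lower and 1 higher at 8 h, 2 and 0 at 24 h, and 2 and 2 at 72 h. At that threshold 313 of the 11963 genes were lower and 382 higher at 8 h, 689 and 632 at 24 h, and 901 and 843 at 72 h. The gene was OAS1, another synthase of the 2-5A messenger, at 67.8, 114 and 96.0 in vehicle, 67.0, 76.8 and 46.4 at 8 h, 18.9, 45.2 and 6.01 at 24 h, and 50.7, 81.7 and 83.2 at 72 h. All 24 h arrays lay below vehicle, and the difference was -1.57 (adjusted p = 0.0359). A second OAS1 probe set differed by -0.31, -0.89 and -0.59. SAMHD1, which depletes nucleotides, had a positive difference of 1.01 at 8 h and 1.00 at 72 h and -0.06 at 24 h, none past the test (adjusted p = 0.44, 0.14 and 0.98). IFIH1, the RNA sensor MDA5, had -1.12 at 72 h (adjusted p = 0.072).

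Upstream and alongside these genes, 66 other genes of interferon signalling, RNA sensing and antigen presentation were examined, of which 47 were tested. At 8 h 0 fell and 1 rose, at 24 h 1 fell and 1 rose, and at 72 h 4 fell and 2 rose, to be read against the same shares of all genes as above. At an unadjusted p under 0.05 the counts were 2 lower and 1 higher at 8 h, 5 and 3 at 24 h, and 7 and 3 at 72 h, beside the shares of all genes given above for that threshold. IFNGR1, the ligand-binding chain of the interferon gamma receptor, read 1385, 1356 and 1865 in vehicle, 1060.4, 1007 and 1242 at 8 h, 698, 939.6 and 931 at 24 h, and 794, 793 and 959 at 72 h. No treated array reached vehicle. IFNGR1 fell by 0.83 at 24 h (SE 0.15, adjusted p = 0.00317) and by 0.83 at 72 h (adjusted p = 0.0020), or 1.78-fold, while -0.46 at 8 h did not pass (adjusted p = 0.31), and both calls were kept in all 21 alternatives.

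The signalling chain IFNGR2 differed by 0.03, -0.11 and -0.01 with adjusted p of 0.80 or higher. Of the type I receptor chains, IFNAR2 differed by -0.31, -0.31 and -0.17 without passing, and IFNAR1 was under the filter at means of 105, 118, 131 and 115. JAK1, the kinase that both receptors share, read 2704, 2683 and 2777 in vehicle, 2608, 2383 and 2539 at 8 h, 2255, 2279 and 2236 at 24 h, and 1901, 1944 and 1913 at 72 h. The groups were in that order with no overlap between them. At 24 h its difference of -0.27 did not pass (adjusted p = 0.065, and 0.0495 with a replicate block). JAK1 fell by 0.50 at 72 h (SE 0.08, adjusted p = 5.6e-04), and was lower at 72 h than at 8 h by 0.38 (log2 difference -0.38, adjusted p = 0.0115).

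TNFSF10, the death ligand TRAIL and an interferon-induced gene in many cells, went the other way. It read 141, 122 and 53.9 in vehicle, 304, 297 and 294 at 8 h, 277, 319.8 and 279.8 at 24 h, and 213, 244 and 296 at 72 h. Every treated array was above every vehicle array. TNFSF10 rose by 1.46, 1.42 and 1.21 on the log2 scale (adjusted p = 0.00628, 0.00246 and 0.00605). Its vehicle mean of 106 was under the filter, so it entered the test through its treated arrays, and the calls were kept in all 20 alternatives, no filter included.

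Further calls at 72 h were smaller. B2M, the shared light chain of MHC class I, fell by 0.29 (adjusted p = 0.0224) and PTPN11, a phosphatase of cytokine signalling, by 0.32 (adjusted p = 0.0274). PLSCR1, an interferon-induced membrane protein, rose by 0.35 (adjusted p = 0.0277). These calls were lost in 7, 7 and 8 of 21 alternatives, median centring of the arrays and the removal of single arrays among them for each gene. The antigen presentation genes TAPBP and PSME1 had differences of -0.31 and -0.32 at 72 h that did not pass.

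**Figure D4:**
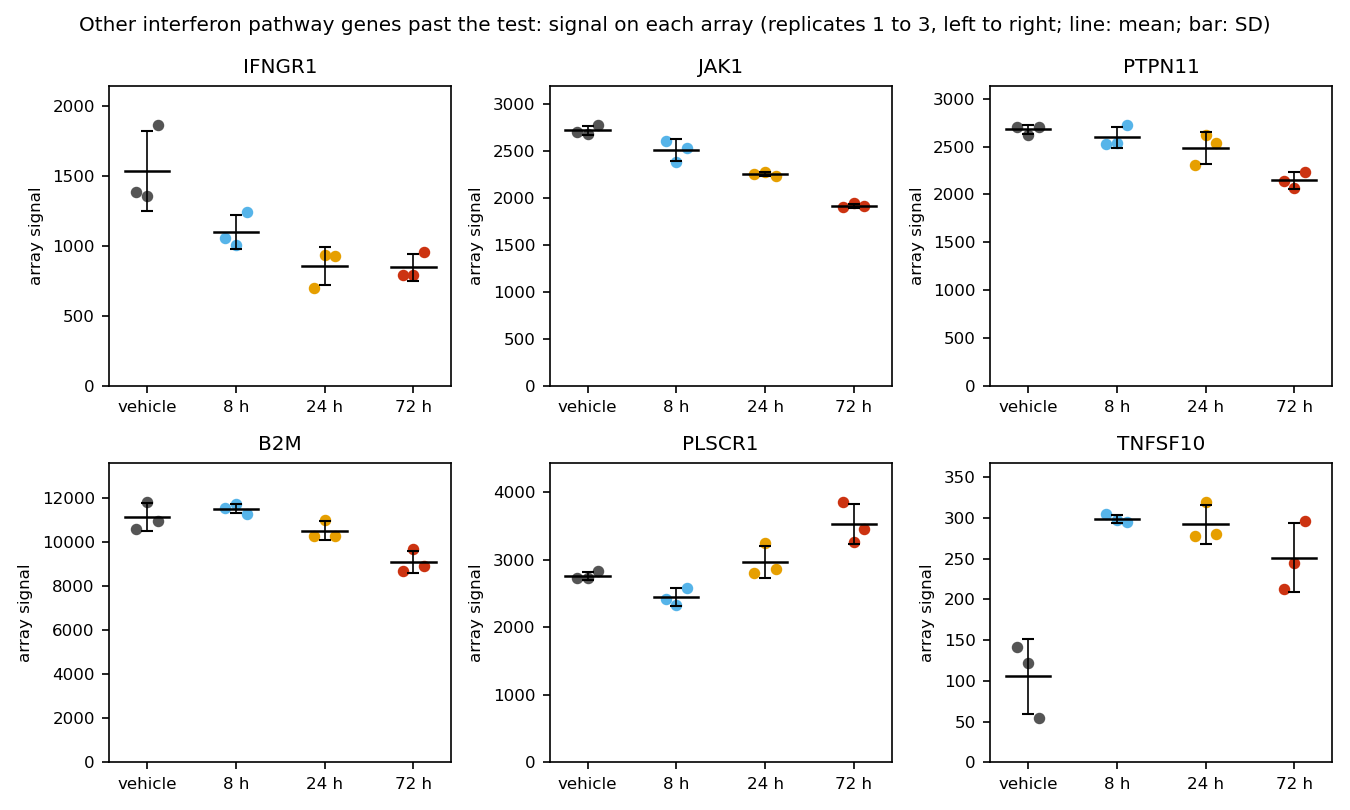
Signal on each U133A array (vertical axis, from 0) for the 6 other interferon pathway genes that passed the test at 1 or more times, by group, with the group mean as a line and the SD as a bar. JAK1 stepped from a mean of 2721 in vehicle to 1919 at 72 h, IFNGR1 was lower from 24 h on, and TNFSF10 was higher at every time.

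The U95 arrays gave a check of sign with 1 array per time and no replicates, so no test was made on them. Of the 29 tested members 25 had a probe set for that gene alone on U95. Their U95 log2 ratio to vehicle had the same sign as on U133A for 15 of 25 at 8 h, 16 at 24 h and 18 at 72 h, where 2941, 3070 and 3274 of 5141 genes tested on U133A and present on U95 did. Among members called on U133A the sign was the same for 0 of 1 at 8 h, 2 of 3 at 24 h and 4 of 5 at 72 h. For called members above the U95 filter, its 40th percentile, it was the same for 2 of 2 at 24 h and 1 of 2 at 72 h. Over all genes called on U133A it was the same for 40 of 43, 204 of 225 and 346 of 390.

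GBP2 had U95 signals of 395, 281, 183 and 264 in vehicle and at 8, 24 and 72 h, lower at each time as on U133A (log2 ratio -0.47, -1.05 and -0.56). IRF1 read 362, 299.6, 234 and 65.1, also lower at each time (-0.26, -0.60 and -2.25). IRF8 did not repeat its pattern: it read 133.4, 208, 142 and 115, with ratios of 0.59, 0.08 and -0.20, at signals under the U95 filter.

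TRIM22 on U95 read 19.3 in vehicle and 13.8 at 72 h, which is near background. IFIT5 differed by -0.14, -0.62 and -0.30 at signals between 93.8 and 151, with a mean under the U95 filter. PSMB8 read 387, 320.1, 641 and 432 with a 72 h ratio of 0.15, opposite to U133A, while its partner PSMB9 read 425, 300.5, 283 and 157 (-0.48, -0.56 and -1.36). CXCL10 had ratios of -1.75, -1.77 and -1.54, from 57.3 in vehicle to 7.21 at 8 h, at signals near background. EIF2AK2, IRF9 and GBP1, below vehicle at every time on U133A, did not repeat this on U95 at signals above its filter. EIF2AK2 was higher at each time (0.19, 0.22 and 0.47), from 3421 in vehicle to 4728 at 72 h. IRF9 had ratios of -0.27, 0.03 and -0.06, and GBP1 of -0.27, 0.07 and -0.01. Among the other pathway genes, IFNGR1 (-0.46, -0.84 and -0.44), JAK1 (-0.29, -0.32 and -0.60) and TNFSF10 (1.58, 1.32 and 1.39) had the same sign on both array types at every time, and B2M at 72 h was opposite (0.33).

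**Figure D5:**
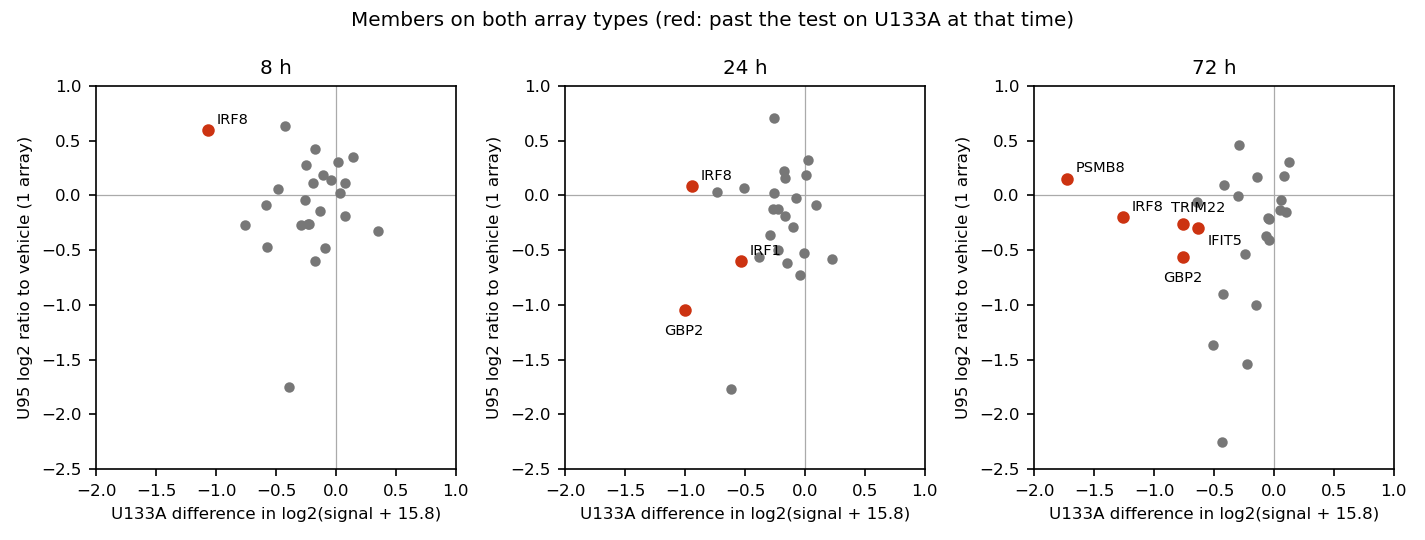
U95 log2 ratio to vehicle from 1 array per time (vertical axis) against the U133A difference in log2(signal + 15.8) (horizontal axis) for the 25 tested members on both array types, with members past the U133A test in red and named. GBP2 and IRF1 at 24 h lie below 0 on both axes, IRF8 at 8 h and PSMB8 at 72 h lie below 0 on U133A and above 0 on U95.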

How the data were processed

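Total RNA of OVCAR3 cells was measured on 12 U133A and 4 U95 Affymetrix arrays. The deposited values are an intensity (signal) per probe set on a linear scale, made by the authors with MAS5 per the submitters' processing notes, whose version is not given in the sources used here. Every U133A array had a 2% trimmed mean of 500.2, and the values were used as deposited. All array columns were matched to samples by their labels. Probe sets were named from the platform annotation: of 22283 on U133A, 19071 had 1 gene, 1043 several and 2169 none, and only the first were used.

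In R 4.3.3 (limma 3.58.1, and data.table at version 1.17.8), signals were taken as log2(signal + 15.833), the added number being the 10th percentile over U133A (13.9 on U95). Genes under the 40th percentile of the mean of these log2 values were left out. The 12 arrays were fitted together with a mean for each group (eBayes with trend, 8 residual degrees of freedom). Calls are Benjamini-Hochberg adjusted p under 0.05 over 7178 genes. Precision is limited by the number of arrays. The group fit was tested on simulated U133A data for 72 h against vehicle, and the other steps were not tested in this way. Promoters were searched in Python 3.11.15, and figures were drawn with matplotlib 3.10.9.

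Replicate numbers were checked for pairing: deviations of same-numbered arrays correlated over 0.1 in 1, 1 and 2 of 3 pairs of vehicle with 8, 24 and 72 h, in all 3 of 8 with 24 h and of 24 with 72 h, and in 2 of 3 of 8 with 72 h. All 18 were positive (0.055 to 0.264). No label states a pairing, and the cut of 0.1 was a choice. Not every pair with vehicle was over 0.1, and the reported fit has no replicate block. The values do not show that the arrays were unpaired. With a block in the limma fit, GBP1 at 8 h (adjusted p = 0.0245), CXCL10 at 24 h (0.0426) and IRF1 at 72 h (0.0357) also passed. Values on every array are given for called members and the 2 with the highest mean signal in each role, and, of the other pathway genes, for IFNGR1, JAK1 and TNFSF10. The members, lists and naming rule were chosen with earlier results of these data known. Alternatives were other pseudocounts, filters, scalings, averaging over the probe sets of a gene, a replicate block, fits of 2 groups and each array left out.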

Additional observations from a re-analysis of the deposited data

Results flagged for a closer look

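Among the members no difference between treated times passed the test, but 3 of the other pathway genes differed between 72 h and 8 h in the test of that difference itself (limma with Benjamini-Hochberg adjustment). B2M was lower at 72 h than at 8 h by a log2 difference of -0.34 (adjusted p = 0.0174), from a mean signal of 11504 to 9076. JAK1 was lower by a log2 difference of -0.38 (adjusted p = 0.0115), from 2509.7 to 1919. PLSCR1 was higher by 0.52 (adjusted p = 0.0042), from 2444 to 3527, with a mean of 2763 in vehicle. In each of the 3 genes the 72 h arrays did not overlap with the 8 h arrays.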

How the results depend on the processing

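With 29 members tested, the number that fell was 1 at 8 h, 3 at 24 h, 5 at 72 h and 3 over all treated arrays, and the F test passed 3. With the filter at the 60th percentile (signal 386), 7 members were tested and all 5 counts were 0, since the members that fell were no longer tested. With no filter on low signals the 72 h count was 3 and the F test count 1, when the probe sets of a gene were averaged the 72 h count was 3, and with only the 2 groups compared it was 2. With a replicate block the 8 h count was 2 and the F test count 6, and the counts between treated times stayed 0. Leaving out 1 array at a time gave 0 to 1 at 8 h, 1 to 4 at 24 h, 2 to 5 at 72 h, 1 to 4 over all treated arrays, 1 to 3 for the F test, and 0 to 1 for falls from 24 h to 72 h and from 8 h to 72 h. The lowest counts came without vehicle replicate 1, 2 or 3 or, at 8 h, without 8 h replicate 2, and the cause was not tested. For the 87 differences of single genes that did not pass, 14 of 1764 values under an alternative did, all in the reported direction. Under quantile normalization 22, 22 and 22 members were negative at 8, 24 and 72 h, and under median centring 21, 22 and 22.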
